A study of Homo sapiens with 8 samples.

Results

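The regions described here are the listed ChIRP-seq peaks of the chromosome 17 centromere, taken as all rows of both deposited peak lists whose start lies from 21000000 to 28999999 on chromosome 17 of build hs1. They number 1638 of 32035 peaks in the list of asynchronous cells and 1836 of 33553 in the list of mitotic cells, 3474 of 65588 in all. ChIRP-seq recovers chromatin with biotinylated antisense probes, here against α-satellite RNA, and sequences the DNA that comes with it. The cells were RPE1, an immortalised human retinal pigment epithelium line of wild-type genotype, either unsynchronised (Async in the labels) or mitotic (Meta). Of the 8 libraries in the labels, the Odd and Even probe libraries of a condition had been merged into 1 list, and the input and Scr libraries were not analysed here. A single list for each condition leaves no replicate error, and no test between conditions was made. The intervals below are exact 95% binomial intervals that cover counting error only, treat neighbouring peaks as independent and are not adjusted for the number of comparisons. Sequencing depth per library is unknown from these lists.

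α-Satellite is the tandem repeat on which human kinetochores assemble. Its monomers of about 170 bp are strung into higher-order repeats, each a fixed series of diverged monomers that is copied nearly unchanged along an array. Chromosome 17, like 11 and X, carries arrays of suprachromosomal family 3, whose repeat units descend from an ancestral pentamer. On chromosome 17 the array D17Z1 lies beside related arrays such as D17Z1-B, and their repeat units differ in the number of monomers. α-Satellite arrays are transcribed, and the RNA is known to stay near its array of origin. No annotation or sequence of build hs1 was used. The parts described below were thus set by coverage and spacing of peaks, and they were not matched to named arrays. The probes could pair with the DNA of the arrays as well as with RNA, and reads from near-identical copies can be placed on any of them. How far either shaped the lists was not tested.

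The peaks formed a single block. Joining peaks of both lists across gaps of at most 100 kb gave 1 block of at least 20 peaks, from 23411454 to 27656948, a length of 4.25 Mb, which held 1637 asynchronous and 1835 mitotic peaks. The same block came out with joining gaps of 50 and 200 kb. The remaining members were 1 mitotic peak at 21327177 to 21327473 with a fold enrichment of 3.62 and 1 asynchronous peak at 22075178 to 22075444 with 3.78. Fold enrichment is the authors' ratio of pileup to local background at a peak, and it is used only within a list. The nearest listed peaks beyond the window edges had fold enrichments of 3.57 at 5173502 and 3.46 at 36744001 in the asynchronous list, and 4.34 at 20394554 and 5.40 at 29630879 in the mitotic list. Both ends of the block thus lay inside the window, with at most 1 weak peak of a list between the block and the window's edge.

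Peaks covered 43.2% of the block in asynchronous cells (1835194 bp) and 42.6% in mitotic cells (1807206 bp). The mitotic list reached nearly the same length with more and narrower peaks. The ratio of mitotic to asynchronous peaks in the block was 1.12 (1.05 to 1.20), and the ratio of covered length was 0.985. The direction of that last ratio was not stable: over peaks with an enrichment of 6 or more and a −log10 q of 5 or more, the mitotic covered length of the window was 1.01 times the asynchronous one. Median peak width in the block was 917 bp (871 to 946) in the asynchronous and 815 bp (769 to 844) in the mitotic list, with quartiles at 542 and 1444 bp and at 468 and 1270 bp. Over the whole lists the medians were 868 and 796 bp. More and narrower mitotic peaks were also found in the largest blocks of chromosome 11, with a ratio of 1.13 and median widths of 944 and 765.5 bp, and of X, with 1.18 and 1086 and 845 bp. No peaks of 1 list overlapped each other. Peaks past that strength limit made up 69.5% of the block's asynchronous peaks (67.2 to 71.7%) and 72.2% of its mitotic peaks (70.1 to 74.2%). Over all listed peaks the shares were 73.7% and 77.6%.

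Along the block, coverage was high in the left part, low over the long middle and highest in a short run on the right, in the same places in both lists. In the fixed 100 kb bins that lie wholly in the block, 41 in number, coverage ran from 14.8% to 81.4% with a median of 43.9% in the asynchronous list, and from 15.2% to 80.1% with a median of 40.1% in the mitotic list. The bin profiles of the lists had a Pearson r of 0.93 and a Spearman rho of 0.92 over these bins. Bins share the reference sequence, the cell line and the way reads were placed, so these values are descriptions and not tests. The fullest bins began at 26.7 Mb, with 81.4% and 80.1% covered in asynchronous and mitotic cells, at 24 Mb, with 72.3% and 62.7%, and at 26.8 Mb, with 67.02% and 64.8%. The emptiest began at 25 Mb, with 18% and 15.7%, at 24.8 Mb, with 14.8% and 19.0%, and at 24.7 Mb, with 19.7% and 15.2%. The bin between them, at 24.9 Mb, had 19.7% and 18.9%, so the low bins formed a run of 4. Another low bin stood alone at 26.5 Mb, with 19.3% and 20.9%, beside the fullest part of the block.

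**Figure D1:**
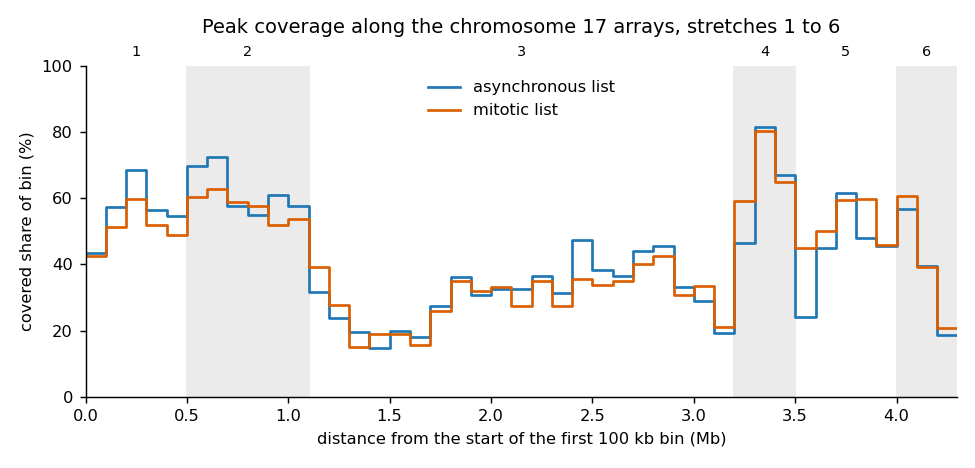
Share of each 100 kb bin covered by peaks (y axis, %) along the block (x axis, distance in Mb from the start of the first bin), asynchronous list in blue and mitotic list in orange, with stretches 1 to 6 marked. Both lines fall to between 14.8% and 19.7% in the emptiest bins and reach 81.4% and 80.1% in the fullest, and the first and last bins are only partly inside the block.

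The bins differed in the number, the width and the strength of their peaks. Peak starts per full bin ran from 20 to 59 with a median of 37 in the asynchronous list and from 22 to 61 with a median of 42 in the mitotic list. Median widths per bin ran from 447 to 1870.5 bp and from 405 to 1495 bp. Number and width did not always go together: the bin at 27.5 Mb had the fewest starts, 20 and 22, but the largest asynchronous median width. The median fold enrichment per bin ran from 4.80 to 9.31 and from 5.39 to 9.13. Coverage of a bin went with its median fold enrichment at a Pearson r of 0.81 in asynchronous and 0.83 in mitotic cells, with its number of starts at 0.76 and 0.75, and with its median width at 0.61 and 0.67. Coverage, width and number come from the same peaks, so these correlations are not independent of each other. The less covered bins thus tended to have fewer, narrower and weaker peaks.

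**Figure D2:**
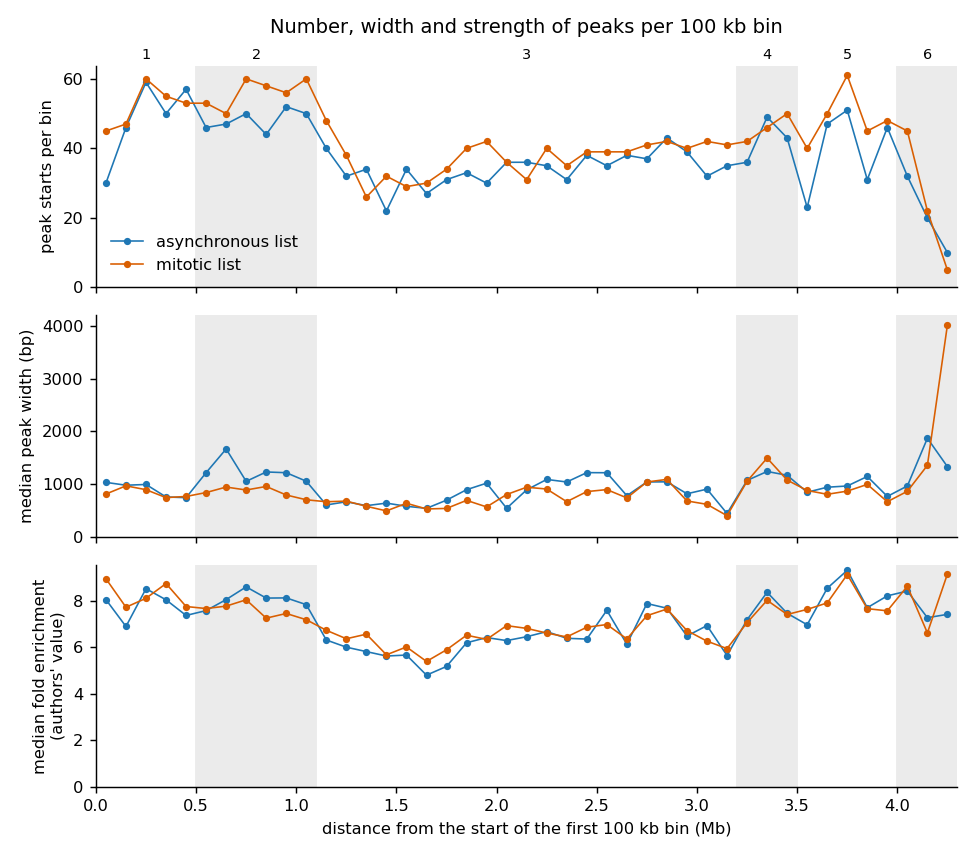
Peak starts per 100 kb bin (top), median peak width in bp (middle) and the authors' median fold enrichment per bin (bottom) against distance in Mb from the start of the first bin, asynchronous list in blue and mitotic list in orange. The lowest median fold enrichments, 4.80 and 5.39, are in the bin that begins at 25 Mb, and the last mitotic bin has a median width of 4016 bp from only 5 peaks.

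Coverage and spacing of peaks were used to divide the block into stretches. The covered pattern of a list was correlated with itself at growing distances, in steps of 25 bp, which is the grid on which 97.3% of asynchronous and 98.4% of mitotic starts of the block lie (0 to 5 bp past a multiple of 25 bp). In each bin the best distance between 2000 and 3200 bp was noted. The bins were then grouped into 6 stretches by coverage and best distance, after these values had been seen, so the stretches carry no test. Stretch 1 (23411454 to 23899999) repeated near 2400 bp. Stretches 2 (23900000 to 24499999) and 3 (24500000 to 26599999) repeated near 2700 bp. Stretch 4 (26600000 to 26899999) was the most covered and had its maxima near 1275 and 2600 bp. Stretch 5 (26900000 to 27399999) as a whole repeated near 2700 bp, but less clearly than stretches 2 and 3. Stretch 6 (27400000 to 27656948) showed no common distance.

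In stretch 1 the best distance lay from 2300 to 2500 bp in 4 of 5 bins of the asynchronous list and in 4 of 5 bins of the mitotic list, and the median was 2400 bp in both. In stretch 2 it lay from 2600 to 2800 bp in 6 of 6 asynchronous and 4 of 6 mitotic bins. In stretch 3 it did so in 19 of 21 asynchronous and 18 of 21 mitotic bins, with medians of 2725 and 2700 bp. In stretch 5, 2 of 5 asynchronous and 3 of 5 mitotic bins fell in that range. In stretch 4 it was 1 of 3 and 0 of 3, and in stretch 6 it was 0 of 3 in both lists. In both lists the bin that begins at 23.8 Mb gave 2375 bp and the bin that begins at 23.9 Mb gave 2725 and 2700 bp. The exception within stretch 1 was the bin at 23.6 Mb, with 2725 and 2550 bp. Coverage rose between the bins at 23.8 and 23.9 Mb, from 54.6% to 69.7% and from 48.7% to 60.3%. The fall at 24.5 Mb, to 31.7% and 39.2%, had no matching change in the distance of the stretches. The bin at 24.5 Mb was itself outside the range of 2600 to 2800 bp in both lists. Its best distances were 2875 bp (r = 0.18) and 2175 bp (r = -0.07).

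**Figure D3:**
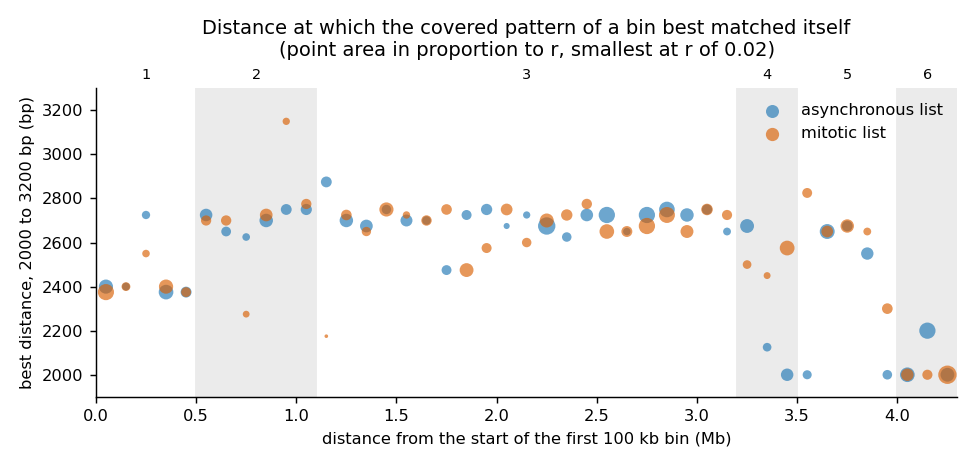
Best distance between 2000 and 3200 bp at which the covered pattern of a bin matched itself (y axis, bp) along the block (x axis, Mb from the start of the first bin), with point area in proportion to r (no smaller than at 0.02), asynchronous list in blue and mitotic list in orange. Most points of stretch 1 lie near 2400 bp and most of stretches 2 and 3 near 2700 bp, while points of stretch 4 are spread and most points of stretch 6 lie at 2000 bp, the lower limit of the search.

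Over whole stretches the distances were close in both lists. In stretch 1 the first maximum was at 2375 bp in the asynchronous list (r = 0.20) and at 2400 bp in the mitotic list (r = 0.20). Followed to the fifth multiple, the repeat distance was 2385 and 2395 bp, or 14.0 and 14.1 monomers of 170 bp. In stretch 3 the first maximum was at 2725 bp (r = 0.25) and 2700 bp (r = 0.23), and the repeat distance from the fifth multiple was 2715 bp in both lists, or 16.0 monomers. Stretch 2 gave 2705 and 2710 bp, and stretch 5 gave 2675 and 2685 bp. The repeat distance of stretches 2 and 3 was thus nearly 2 monomers longer than that of stretch 1. These distances were not tested against each other.

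The regular spacing reached far in stretch 3. At multiples 1 to 5, r in the asynchronous list was 0.25, 0.24, 0.23, 0.22 and 0.18, and in the mitotic list it was 0.23, 0.22, 0.21, 0.21 and 0.18. Midway between multiples r was negative, at -0.05 and -0.06 before the first multiple and -0.08 and -0.11 between the first and the second. In stretch 1 the same series fell off sooner, from 0.20 at the first multiple to 0.07 at the fifth in the asynchronous list and from 0.20 to 0.09 in the mitotic list. Covered positions of stretch 3 thus recurred over at least 5 units and were less often covered midway between them. In stretch 5, r was 0.24 and 0.18 at the first multiple and 0.21 and 0.07 midway before it, so the asynchronous dip was small. In stretch 1, r midway before the first multiple was 0.13 and 0.07. Stretch 4 had its highest maximum at 1275 bp in the asynchronous list (r = 0.29), with the second multiple at 2600 bp (r = 0.28). In the mitotic list the highest was at 2525 bp (r = 0.21) and the repeat distance from the fifth multiple was 2605 bp, and between lists it was 2625 bp, so the lists had distances near 2600 bp in common.

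**Figure D4:**
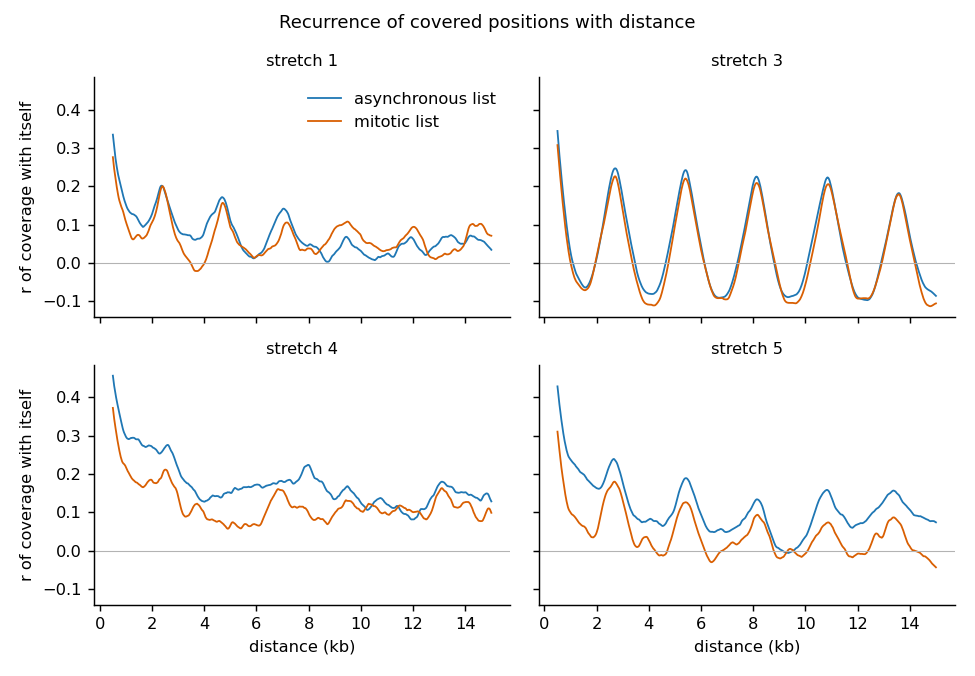
Correlation r of the covered pattern with itself (y axis) against distance from 0.5 to 15 kb (x axis) in stretches 1, 3, 4 and 5, asynchronous list in blue and mitotic list in orange. Stretch 3 rises to between 0.18 and 0.25 at each of 5 multiples of 2715 bp and falls below 0 between them, and in stretch 4 the first maximum is at 1275 bp for asynchronous and 2525 bp for mitotic peaks.

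Distances between single peak starts were also counted. The most frequent distance below 5000 bp, in a window of 51 bp, was 2373 bp in stretch 1 of the asynchronous list, from 18 pairs of starts, and 2426 bp in the mitotic list, from 18 pairs. In stretch 3 it was 2726 bp from 50 pairs and 2725 bp from 59 pairs, against 12.4 and 14.6 pairs per window on average between 1500 and 4000 bp. In stretch 1 only 3 and 4 pairs lay within 25 bp of 2700 bp, and 13 and 13 within 25 bp of 2400 bp. In stretch 3 the order was the opposite, with 49 and 52 pairs near 2700 bp and 11 and 14 near 2400 bp. In stretch 1 the shorter distance was the more frequent, and in stretch 3 the longer. The stretches had been grouped by the best distance of these same peaks, so this order is no separate support for them.

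Peaks were then set against the repeat unit. Each unit of 2715 bp in stretch 3 held on average 0.928 asynchronous and 1.01 mitotic peaks and 838 and 806 covered bp. These are averages: the first quartile of the distance between neighbouring starts in that stretch was 1402 and 1286.5 bp. Its longest gaps were 16002 and 13128 bp. The median peak of stretch 3 was 29.3% and 24.6% of the unit in width, or 4.68 and 3.94 monomers. Stretch 2, with nearly the same unit, held 1.30 and 1.52 peaks and 1681 and 1558 covered bp per unit. Stretch 1 held 1.18 and 1.27 peaks and 1369 and 1246 covered bp per unit of 2385 and 2395 bp. Coverage of the stretches was 57.4% and 52.0% in stretch 1, 62.1% and 57.5% in stretch 2, and 30.9% and 29.7% in stretch 3. Stretches 2 and 3, of like spacing, had been set apart by coverage, so their difference in coverage restates that grouping. Fold enrichment went with coverage over the bins, so its difference between them is not independent of the grouping. Median fold enrichment was 8.05 in stretch 2 (7.68 to 8.37) and 6.25 in stretch 3 (6.07 to 6.42) of the asynchronous list, and 7.64 (7.29 to 7.93) and 6.54 (6.36 to 6.68) in the mitotic list.

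A smaller share of the running numbers in peak names was present in stretch 3 than in stretches 1 and 2. These numbers follow genome order, and those absent from a list may be calls removed before deposit, which no source at hand states. Of 2056 numbers in stretch 3 of the asynchronous list 34.9% were present (32.9 to 37.0%), and of 2189 in the mitotic list 35.8% (33.8 to 37.9%). In stretch 1 the shares were 57.9% (53.0 to 62.7%) and 56.3% (51.6 to 60.9%), and in stretch 2 they were 58.7% and 59.1%. Counted by running numbers, stretch 3 had 97.9 and 104 numbers per 100 kb against 82 and 95 in stretch 2. The part of absent numbers in the lower coverage of stretch 3 was not tested. The share present over each whole list is not given here, so the usual level is unknown.

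Peaks were said to meet when they shared 1 bp or more. By that rule 1251 asynchronous peaks of the block (76.4%, 74.3 to 78.5%) met a mitotic peak, where 81.9% of the whole asynchronous list did. In the mitotic list 1335 peaks (72.8%, 70.7 to 74.8%) met an asynchronous one, where 79.2% of that whole list did. Both shares were thus below those of the lists as a whole. At a reciprocal overlap of at least 50% the shares were 50.4% and 45.0%, against 53.8% and 51.3% of all peaks. Both lists shared 1220493 bp, or 66.5% of what asynchronous peaks covered and 67.5% of what mitotic peaks covered. Peaks that met the other list were wider and stronger than those that did not. Their median width was 1047 against 545 bp in the asynchronous list and 919 against 518.5 bp in the mitotic list, and their median fold enrichment was 7.80 against 5.55 and 7.81 against 5.89. A wider peak meets another more easily whatever its place, so the measures are not independent.

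By stretch, the asynchronous share met ran from 65.9% (62.3 to 69.3%) in stretch 3 to 90.0% (85.9 to 93.2%) in stretch 2, and the mitotic share from 61.6% (58.1 to 65.0%) in stretch 3 to 87.0% (80.2 to 92.1%) in stretch 4. Mitotic peaks covered 52.0% of both stretch 5 and stretch 1, where 85.9% and 77.3% of asynchronous peaks met a mitotic one. The other way round, 72.5% and 82.7% of mitotic peaks met an asynchronous one, with asynchronous coverage of 44.8% and 57.4%. In these stretches the asynchronous shares thus differed at like mitotic coverage, while the mitotic shares had the order of asynchronous coverage. The correlation of the lists position by position, which is centred on each list's own coverage, was 0.45, 0.42, 0.37, 0.40, 0.34 and 0.36 in stretches 1 to 6, and 0.43 over the block. In stretches 1 to 5 the value was highest with the lists unshifted. In stretch 3 the correlation between lists was 0.25 after a shift of 1 unit and -0.09 after a shift midway to it.

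Coverage was then read at peak midpoints and at set distances from them. In stretch 3, 56.7% of 714 asynchronous midpoints were covered by a mitotic peak, 20.5% of the positions midway to the next unit and 47.8% of those 1 unit away, while mitotic peaks covered 29.7% of the stretch. The other way round, 56.8% of 781 mitotic midpoints were covered by an asynchronous peak, 23.2% midway to the next unit and 48.4% 1 unit away, with 30.9% of the stretch covered. Coverage 1 unit away was thus nearer to that at the midpoint than to that of the stretch. Within a list, asynchronous peaks covered 49.95% of the positions 1 unit from asynchronous midpoints, and mitotic peaks covered 46.4% of those 1 unit from mitotic midpoints. In stretch 1, with 240 asynchronous midpoints, mitotic peaks covered 69.6% at the midpoint, 47.9% midway to the next unit and 62.4% 1 unit away, against 52.0% of the stretch. From 257 mitotic midpoints there, asynchronous peaks covered 76.7%, 56.5% and 66.99%, against 57.4% of the stretch, so midway was close to the level of the stretch.

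**Figure D5:**
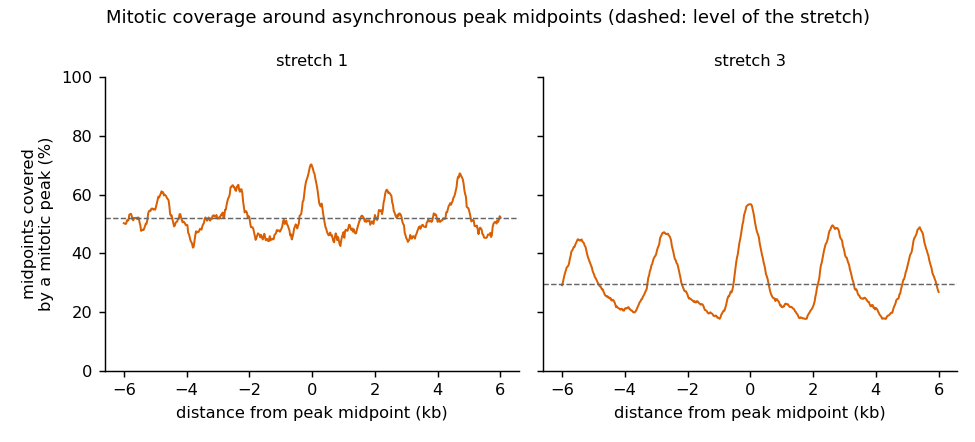
Share of asynchronous peak midpoints covered by a mitotic peak (y axis, %) against distance from the midpoint (x axis, kb) in stretches 1 and 3, with the mitotic coverage of the stretch as a dashed line. In stretch 3 the share is 56.7% at the midpoint, 47.8% 1 unit away and 20.5% midway to the next unit.

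Taken as whole stretches, stretches 1 and 2 on the left were covered more in asynchronous cells, and stretches 4 and 5 further right more in mitotic cells. Mitotic minus asynchronous coverage was -5.36 percentage points in stretch 1, where it was negative in 5 of 5 bins, and -4.65 points in stretch 2, with 4 of 6. It was 3.01 points in stretch 4, positive in 1 of 3 bins, and 7.25 points in stretch 5, positive in 4 of 5. The excess in stretches 4 and 5 was uneven, with 12.6, 20.9 and 11.9 points in the bins at 26.6, 26.9 and 27.2 Mb. The other bins of these stretches ran from -2.27 to 5.35 points. The directions in stretches 1, 2, 4 and 5 held with the strength limit, at -3.42, -5.99, 2.75 and 7.92 points. In stretch 3 the difference was -1.18 points and turned to 0.95 with the limit, and in stretch 6 it was 2.19 points and turned to -0.63. Stretch 5 also had the highest ratio of mitotic to asynchronous peaks, 1.23 (1.02 to 1.49), against 1.07 (0.898 to 1.29) in stretch 1. With 1 list per condition, whether these differences exceed the spread between cultures is unknown.

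Single bins differed by little in most places. Mitotic coverage was within 5 percentage points of asynchronous in 29 of the 41 full bins and more than 10 points away in 4. The bins with the largest mitotic excess began at 26.9 Mb, where coverage went from 24.1% to 45.0% and the number of starts from 23 to 40, at 26.6 Mb, from 46.4% to 59%, and at 27.2 Mb, from 47.9% to 59.9%. The bins with the largest deficit began at 25.8 Mb, from 47.4% to 35.7%, at 24 Mb, from 72.3% to 62.7%, and at 23.9 Mb, from 69.7% to 60.3%. Over the 43 bins of the block, all with a mean coverage of at least 10%, coverage was at least 1.25 times higher in the mitotic list in 3 (6.98%, 1.46 to 19.1%) and at least 1.25 times lower in 2 (4.65%, 0.568 to 15.8%). Over all 807 such bins of the genome the shares were 11.0% and 5.82%. Mitotic coverage was higher by any amount in 16 of the 43 bins (37.2%, 23.0 to 53.3%), where 49.8% of all such bins were higher. All 3 shares over the genome lay within the counting intervals of the block.

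Some wide peaks of either list met several peaks of the other. Of the asynchronous peaks of the block 217 (13.3%, 11.6 to 15%) met at least 2 mitotic peaks, up to 4, and of the mitotic ones 159 (8.66%, 7.42 to 10.05%) met at least 2 asynchronous peaks. Over all listed peaks the shares were 14.2% and 12.4%. In stretch 2 they were 22.8% (18.1 to 28.1%) and 11.9% (8.62 to 15.8%), and median width there was 1172 bp (1046 to 1297) in asynchronous and 891 bp (773 to 945) in mitotic cells. Median width was lower in the mitotic list in 31 of the 41 full bins. In stretch 4 it was 1118.5 bp (916 to 1269) and 1182 bp (1022 to 1367), so the order was not the same everywhere.

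The widest peaks lay in the right part of the block. In the asynchronous list they were 9199 bp at 27400775 to 27409973, 8171 bp at 26824528 to 26832698 and 8169 bp at 27262904 to 27271072. Mitotic peaks covered 87.0%, 77.5% and 40.2% of these, in 4, 4 and 3 pieces. In the mitotic list they were 7970 bp at 27604178 to 27612147, 7694 bp at 27569554 to 27577247 and 7372 bp at 27434651 to 27442022, of which asynchronous peaks covered 57.0%, 18.5% and 97.9%. All 6 lie at or beyond 26.8 Mb, outside stretch 3, and are wider than the repeat distance of 2715 bp found in that stretch. None of these 6 was among the strongest named next.

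The strongest peaks were short and mostly in stretch 2. In the asynchronous list a fold enrichment of 14.9 was reached over 722 bp at 24357076 to 24357797, 14.5 over 523 bp at 24142951 to 24143473, and 14.4 over 624 bp at 27110951 to 27111574. In the mitotic list it was 15.3 over 420 bp at 24125150 to 24125569, 15.1 over 397 bp at 24137551 to 24137947, and 14.9 over 623 bp at 27110976 to 27111598. Each met 1 peak of the other list. The site at 27110951, in stretch 5, was the third in both lists.

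Bare intervals were mostly short. Neighbouring asynchronous peaks lay a median of 821.5 bp apart and mitotic ones 757 bp, and in stretch 3 these gaps were 1430 and 1261 bp. The longest asynchronous gaps were 29704 bp at 27574323 to 27604026, 16002 bp at 24510824 to 24526825 and 14329 bp at 25732572 to 25746900. Mitotic peaks covered 7468, 6748 and 3505 bp of them. The longest mitotic gaps were 18332 bp at 27585846 to 27604177, 13128 bp at 24781200 to 24794327 and 13028 bp at 25082523 to 25095550, where asynchronous peaks covered 151, 2835 and 1556 bp. The longest interval bare in both lists was 18181 bp, from 27585846 to 27604026 in stretch 6, and 43.0% of the block was bare in both. The next longest lay in stretch 3, with 10956 bp at 25123173 to 25134128 and 10256 bp at 24868198 to 24878453.

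The largest blocks of chromosomes 11 and X, which carry related arrays, were covered more fully. Coverage there was 65.2% and 59.2% on chromosome 11 (50605500 to 54488521) and 67.2% and 63.2% on X (57692455 to 61117620), in asynchronous and mitotic cells, against 43.2% and 42.6% on chromosome 17. The median fold enrichment was 9.17 (9.05 to 9.35) and 8.55 (8.42 to 8.64) on chromosome 11 and 8.81 (8.67 to 8.98) and 8.35 (8.21 to 8.51) on X, against 7.16 (7.01 to 7.35) and 7.18 (7.01 to 7.37) on chromosome 17. Of the running numbers, 73.7% and 71.4% were present on chromosome 11 and 67.03% and 68.9% on X, against 44.3% and 45.6% on chromosome 17. No share over the whole lists stands beside these. On X, whose repeat distance was 2055 bp in both lists, r was 0.32 and 0.26 at the first maximum and 0.32 and 0.23 midway to it. On chromosome 11 the repeat distances found were 2545 and 3390 bp, or 14.97 and 19.94 monomers. Both lie near multiples of a pentamer, so the search may have taken different multiples of a shorter unit common to both lists. Whether it did was not tested. There r was 0.29 and 0.25 at the first maximum and 0.26 and 0.23 midway. The point midway to 3390 bp may itself be a multiple of such a unit, so the mitotic value there cannot show whether a dip is absent. Over the whole block of chromosome 17, r was 0.29 and 0.25 at the first maximum and 0.14 and 0.09 midway. Stretches 1, 2 and 4 of chromosome 17 lay nearer to these blocks in coverage, at 57.4%, 62.1% and 65.0% in the asynchronous list. These blocks differ in length and in their repeat units, and no test was made between them.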

How the data were processed

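Per the submitters' processing notes, reads were handled with fastp, Bowtie2 and MACS2 on build hs1. Versions, settings, the control library and the placement of multiply mapping reads are nowhere stated in the sources at hand. The deposited lists have no header, so columns were identified by matching values to MACS2's spreadsheet layout for broad calls. The authors' signal column (pileup) and the p-value column were left unused. The authors' fold enrichment, a ratio, and the deposited −log10 q served to describe and filter peaks within a list. The authors also added 3 unnamed score columns that were not used, and whether calls were filtered before deposit is not stated.

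The deposited starts, ends and lengths gave peak coverage, which was counted per base and averaged in 25 bp steps. Repeat distances were the highest local maximum between 500 and 4000 bp of a track's correlation with itself, followed to 5 multiples within 150 bp. Named bins, peaks and gaps were the 3 most extreme of each kind. The code was tested on simulated data. In that test the search for repeat distances began above the 500 bp used here, and a multiple of the planted distance was accepted. It thus did not check the choice between a distance and its multiple. Intervals for medians are exact binomial order statistics. The members, lists and stretches were chosen with earlier results of these data known. No genes were named, and no sequence of build hs1 was used. Tools were matplotlib 3.10.9, scipy 1.17.1, pandas 2.3.3 and numpy 2.4.6 under Python 3.11.15. The Odd and Even libraries are nowhere separate in these lists, so neither could be left out.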

Additional observations from a re-analysis of the deposited data

How the results depend on the processing

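Of 72 alternatives over 32 results, 58 kept the value within its interval or tolerance and its direction. Counts and lengths were allowed 1.5 times, distances 51 bp and correlations 0.1. Coverage differences of stretches were allowed 5 percentage points, which is wide beside differences of this size. The ratio of covered length was judged by direction alone. The share of peaks met fell to 50.4% of asynchronous and 44.9% of mitotic peaks of the window with a reciprocal overlap of at least 50%. Over peaks with an enrichment of 6 or more and a −log10 q of 5 or more, the asynchronous share met was 79.8%, median width 1095 and 969 bp, median mitotic coverage per bin 32.9%, and the ratio of mitotic to asynchronous covered length turned to 1.01. That limit also turned the difference in coverage to 0.95 percentage points in stretch 3 and -0.63 in stretch 6. The commonest asynchronous distance was 2673 bp between starts, 2775 bp from peak ends, 2726 bp from midpoints, 2726 bp with the strength limit and 2614 bp in a 25 bp window. In stretch 1 the asynchronous repeat distance was 2325 bp when only peaks no wider than 2000 bp were used. In these cases the cause was not tested. The alternatives for repeat distances and stretches were added after the data had been seen. No paired analysis was possible because each condition has 1 merged list. Positions are resolved to about 25 bp, and depth is unknown.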
